A study of Homo sapiens with 6 samples.

Results

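Cohesin is a ring-shaped protein complex that holds sister chromatids together and folds chromosomes into loops. *SMC1A*, *SMC3* and *RAD21* encode the ring, and *STAG1* and *STAG2* encode the alternative subunits that bind *RAD21*. *NIPBL* and *MAU2* encode the factor that loads the ring on DNA, *PDS5A* and *PDS5B* encode regulators of its residence on DNA, and *ESCO1* encodes an acetyltransferase that modifies *SMC3* protein. Variants of *NIPBL*, *SMC1A*, *SMC3* and *RAD21* are known causes of Cornelia de Lange syndrome, a developmental disorder in which kidney and urinary tract malformations occur.

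These 10 genes were chosen by symbol, as subunits, loaders and regulators of cohesin, and all 10 were among the 26485 gene names of the count table. They were followed in 6 cultures of HEK293, a line derived from human embryonic kidney that the sample titles spell HEK393. In 3 cultures the long noncoding RNA *HSALNG0134318* was silenced by transient transfection of a Smart Silencer, which combines small interfering RNAs with antisense oligonucleotides. The other 3 were controls, labelled NC in one field and WT in another, and what the controls were transfected with is not given in the sources used here. The labels name no clone and no further treatment, and polyA RNA was sequenced from every culture. The knockdown cultures had totals of 13900965 to 15583535 counts and the controls of 14732648 to 16869948. *HSALNG0134318* is not listed in the table, so the labels could not be checked against the silenced transcript. All 10 markers set for HEK293 were above 10 counts in every culture, with sums of 21963 to 29971 counts in the knockdown and 20092 to 26844 in the control cultures, while *CD3E* and *HBB* of the 14 markers of other cells were at 0 throughout. The sums of those 14 markers were 610 to 782 and 676 to 744 counts, most of it *COL1A1*.

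After the filter on low counts, 14877 genes were tested with edgeR's quasi-likelihood test, and all 10 cohesin genes passed it. Genes with a Benjamini-Hochberg adjusted p under 0.05 were called. No cohesin gene was called lower, against 4.64% of all genes tested, and none was called higher, against 5.40%. On the same cultures limma-voom called none and DESeq2's Wald test called *SMC1A* higher. At an unadjusted p under 0.05 by edgeR, *RAD21*, *PDS5A* and *ESCO1* had lower values in the knockdown group, where 13.8% of all genes tested did so, and *SMC1A* had higher values, where 13.1% did so. The knockdown and control cultures did not overlap for *RAD21* and *PDS5A*, with the knockdown below (15.8% of all genes), and for *SMC1A*, with the knockdown above (16.4% of all genes). The log2 fold change was negative for 9 of the 10 genes (5 to 9 over the alternative settings) and for 52.7% of all genes tested. Its median was -0.07 for the cohesin genes and -0.02 over all genes tested. The share and median of all genes were not matched for GC content. In 10 bins of genes by GC content, the median knockdown minus control difference in log2 cpm was -0.104 in bin 1, the lowest, and -0.056 in bin 2. *SMC3*, *STAG2*, *PDS5B* and *ESCO1* were in bin 1 and *NIPBL*, *RAD21* and *STAG1* in bin 2. It was -0.02, 0.02 and 0.015 in the bins of *PDS5A*, *SMC1A* and *MAU2*. In bulk RNA, a change in the number of cells that express a gene and a change in RNA per cell cannot be told apart.

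**Figure D1:**
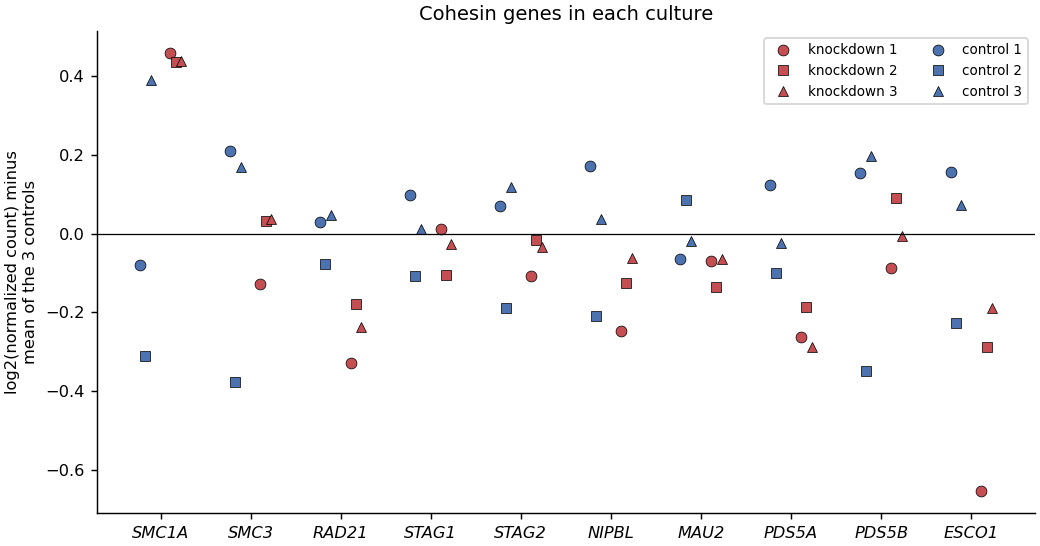
The log2 of the normalized count minus the mean of the 3 controls, with 1 point for each culture, control in blue and knockdown in red. Knockdown points lie above all controls for *SMC1A* and below all controls for *RAD21* and *PDS5A*, and control replicate 2 is the lowest control for 9 of the 10 genes.

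*SMC1A* was the most abundant cohesin transcript. The gene lies on chromosome X, minus strand, at 53374149 to 53422728 of GRCh38, and encodes an SMC (structural maintenance of chromosomes) arm of the ring. Its normalized counts, scaled to the mean effective library size, were 22903, 22562 and 22590 in knockdown replicates 1, 2 and 3 and 15766, 13448 and 21875 in control replicates 1, 2 and 3. The knockdown cultures sat close together, just above control replicate 3 and well above the other two controls. The coefficient of variation was 0.83% in the knockdown and 25.6% in the control group. The knockdown mean was 1.33 times the control mean, which gave a log2 fold change of 0.41 (standard error 0.149, 95% interval 0.09 to 0.74, edgeR adjusted p = 0.102). *SMC1A* was called higher in 3 of 14 alternative settings. Without control replicate 3 the log2 fold change was 0.64, with an adjusted p of 0.00311 (7.18% of genes called higher). With DESeq2's Wald test on all 6 cultures the adjusted p was 0.0417 (6.40%). Without control replicate 2 the log2 fold change was 0.27, with edgeR adjusted p = 0.101.

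*RIBC1*, which encodes a microtubule-associated protein of cilia, starts on the opposite strand beside *SMC1A*, and was added after its values were seen. The canonical transcripts of these genes start 219 bases apart and point away from each other. Other annotated transcripts share 39 exon bases. *RIBC1* had 97.4, 86.6 and 92.3 normalized counts in the knockdown and 38.8, 43.7 and 77.2 in the control cultures. As for *SMC1A*, the knockdown cultures lay above all controls and control replicate 3 was the highest control. The log2 fold change was 0.80, on counts that were a small part of those of *SMC1A*, with a standard error of 0.26 and edgeR adjusted p = 0.0767. *RIBC1* was called higher in 4 of 14 alternative settings. A stranded library kit was named in the labels but the strand setting of the counting is not given in the sources used here, so whether reads of one gene were counted on the other was not tested.

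The RefSeq promoter table (GRCh38) held 8 of the 10 genes, without *RAD21* and *ESCO1*. The 250 bases before a start site are shown for *SMC1A* and *PDS5A*, the matched genes whose knockdown and control cultures did not overlap. Capitals mark letters searched on both strands, namely CCAAT or ATTGG (NF-Y), TTTGAA or TTCAAA (the cell cycle homology region), GGGCGG or CCGCCC (SP factors), TTTCCCGC or GCGGGAAA (E2F) and CCGGAAG or CTTCCGG (ETS factors). The windows lie at chrX:53422655-53422904 and chr4:39977912-39978161, both read on the minus strand.
SMC1A: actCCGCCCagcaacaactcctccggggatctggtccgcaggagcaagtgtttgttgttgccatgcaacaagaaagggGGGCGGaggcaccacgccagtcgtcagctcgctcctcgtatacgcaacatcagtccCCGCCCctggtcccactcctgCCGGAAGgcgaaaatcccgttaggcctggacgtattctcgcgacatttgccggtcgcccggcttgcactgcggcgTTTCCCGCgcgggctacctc
PDS5A: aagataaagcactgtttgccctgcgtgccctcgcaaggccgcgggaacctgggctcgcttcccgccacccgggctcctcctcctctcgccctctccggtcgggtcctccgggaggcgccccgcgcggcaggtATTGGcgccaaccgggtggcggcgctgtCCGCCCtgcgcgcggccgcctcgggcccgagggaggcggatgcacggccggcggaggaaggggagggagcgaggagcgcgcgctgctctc

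The *SMC1A* window ends just before the start of the canonical transcript at 53422654, and the canonical transcript of *RIBC1* begins at its base 32, on the opposite strand. It held SP letters at bases 4, 79 and 135, ETS letters at base 156 and E2F letters at base 231, none of them overlapping. The *PDS5A* window held NF-Y letters at base 133 and SP letters at base 161. Of 35116 promoter windows of this length, 42.6% held the SP letters, 32.0% the NF-Y letters, 13.3% the cell cycle homology letters, 8.52% the ETS letters and 1.39% the E2F letters. These are shares of single windows, whereas a gene was counted if any of its windows held the letters, and *SMC1A* and *STAG2* have more than 1 window. All 8 matched cohesin genes had a window with the SP letters. NF-Y letters were found for *PDS5A*, *PDS5B*, *STAG1* and *STAG2*, E2F letters for *SMC1A* and *STAG1*, ETS letters for *SMC1A* and *NIPBL*, and cell cycle homology letters for *SMC3* alone. These are matches of letters, and binding was not measured.

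*SMC3* encodes the arm that pairs with *SMC1A* protein and lies on chromosome 10 at 110567684 to 110606048, plus strand. Its normalized counts were 5298, 5913 and 5938 in the knockdown and 6690, 4451 and 6500 in the control cultures. The groups overlapped, because control replicate 2 was below all other cultures. Its log2 fold change was -0.04 (95% interval -0.35 to 0.26, edgeR adjusted p = 0.885).

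*RAD21* encodes the kleisin, the subunit that closes the ring between the SMC arms and is cut by separase, and lies on chromosome 8 at 116845934 to 116874776, minus strand. Its normalized counts were 3286, 3646 and 3504 in the knockdown and 4215, 3914 and 4269 in the control cultures. Every knockdown culture was below every control, and the control mean was 1.19 times the knockdown mean. *RAD21* showed a log2 fold change of -0.25 (SE 0.085, 95% interval -0.44 to -0.06), with the smallest p of the 10 genes and edgeR adjusted p = 0.0899. *RAD21* was called lower in 2 of 14 alternative settings. Without control replicate 2 the adjusted p was 0.0175, and after correction for GC content and transcript length it was 0.0290. With any 1 knockdown culture left out, the edgeR adjusted p was 0.206 to 0.276, and without control replicate 1 it was 0.180. *RAD21* shares 576 exon bases with *UTP23* and 271 with *RAD21-AS1*, both on the opposite strand, and 49 with *MIR3610* on the same strand. *UTP23*, a ribosomal RNA processing gene, showed a log2 fold change of 0.04 (edgeR adjusted p = 0.901).

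Neither *STAG* gene passed the test. *STAG2*, on chromosome X at 123960212 to 124422664, had 6046, 6448 and 6375 normalized counts in the knockdown and 6850, 5726 and 7073 in the control cultures. *STAG1*, on chromosome 3 at 136336236 to 136752403, had 1160, 1070 and 1130 in the knockdown and 1232, 1067 and 1160 in the control cultures. The groups overlapped for both genes. Fold changes on the log2 scale were -0.06 for *STAG2* (95% interval -0.27 to 0.16) and -0.04 for *STAG1* (95% interval -0.25 to 0.17), and the edgeR adjusted p values were 0.748 and 0.822. *STAG1* shares 1661 exon bases with *PCCB* on the opposite strand, and *PCCB*, a propionyl-CoA carboxylase subunit gene, showed a log2 fold change of -0.11 (edgeR adjusted p = 0.577). *STAG2* shares 241 exon bases with *TENM1* and 28 with *STAG2-AS1*, both on the opposite strand.

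The loader genes had negative log2 fold changes that did not pass the test. *NIPBL*, on chromosome 5 at 36876769 to 37066413, encodes the subunit that drives loading. It had 3835, 4170 and 4359 normalized counts in the knockdown and 5129, 3938 and 4668 in the control cultures. Control replicate 2 lay among the knockdown cultures and the other controls lay above them. The log2 fold change was -0.15 (95% interval -0.39 to 0.08, edgeR adjusted p = 0.397). It was -0.25 with an adjusted p of 0.0454 without control replicate 2, and -0.06 with an adjusted p of 0.771 without control replicate 1. *MAU2*, the partner of *NIPBL*, lies on chromosome 19 at 19320829 to 19358754. Its normalized counts were 2321, 2221 and 2332 in the knockdown and 2330, 2585 and 2408 in the control cultures. The groups overlapped by the values of knockdown replicate 3 and control replicate 1, and *MAU2* was the only cohesin gene for which control replicate 2 was the highest control. Its log2 fold change was -0.09 (95% interval -0.28 to 0.09, edgeR adjusted p = 0.525).

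*PDS5A* and *PDS5B* encode paralogous proteins that bind the ring and act both in its release and in its maintenance. *PDS5A*, on chromosome 4 at 39822863 to 39977956, had 3463, 3647 and 3402 normalized counts in the knockdown and 4525, 3874 and 4082 in the control cultures. All knockdown cultures were below all controls, and the control mean was 1.19 times the knockdown mean. Its log2 fold change was -0.25 (standard error 0.089, 95% interval -0.44 to -0.05, edgeR adjusted p = 0.102). *PDS5A* was called lower in 2 of 14 alternative settings. The adjusted p was 0.0164 without control replicate 2 and 0.0377 after the correction for GC content and length. With any 1 knockdown culture left out, the edgeR adjusted p was 0.233 to 0.335, and without control replicate 1 it was 0.254. *PDS5B*, on chromosome 13 at 32586452 to 32778019, had 1091, 1234 and 1154 normalized counts in the knockdown and 1290, 910 and 1328 in the control cultures. Here control replicate 2 was the lowest culture and the other two controls the highest. The log2 fold change was -0.02 (95% interval -0.32 to 0.28, edgeR adjusted p = 0.947).

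*ESCO1* acetylates *SMC3* protein, which protects the ring on DNA from release, and lies on chromosome 18 at 21529284 to 21600884, minus strand. It had 572, 738 and 789 normalized counts in the knockdown and 1002, 768 and 946 in the control cultures. Knockdown replicate 1 was the lowest culture, and the groups overlapped only because knockdown replicate 3 was above control replicate 2. Its log2 fold change of -0.37 (standard error 0.141, 95% interval -0.68 to -0.06, edgeR adjusted p = 0.117) was the lowest of the 10 genes. It was -0.48 with an adjusted p of 0.0134 without control replicate 2, and -0.26 with an adjusted p of 0.0457 after the correction for GC content and length. Without knockdown replicate 1 it was -0.25, with an adjusted p of 0.348.

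**Figure D2:**
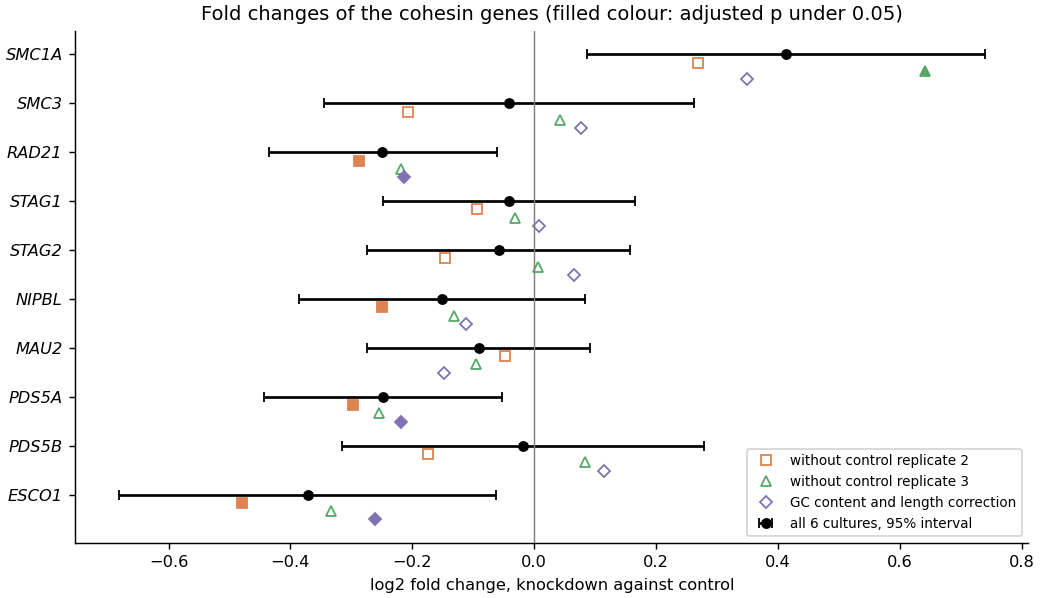
The log2 fold change of each cohesin gene over all 6 cultures with its 95% interval (black), and without control replicate 2, without control replicate 3 and after the correction for GC content and length (colours, filled where the adjusted p was under 0.05). *RAD21*, *PDS5A* and *ESCO1* are filled under 2 of these settings, *NIPBL* and *SMC1A* under 1, and *SMC3*, *STAG1*, *STAG2* and *PDS5B* have points on both sides of 0.

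Control replicate 2 was the lowest control for 9 of the 10 cohesin genes, against 38.3% of all genes tested, a share that was not matched for GC content. Its log2 difference from the mean of the other controls was lowest for *SMC3* (-0.57) and *PDS5B* (-0.52), followed by *SMC1A* (-0.47), and highest for *MAU2* (0.13). Over all genes tested this difference was larger at higher GC content of the canonical transcript, from a median of -0.28 in the lowest of 10 equal bins of genes to 0.40 in the highest. Of the cohesin genes, 9 were under the median GC content of 48.6%, from 35.7% for *ESCO1* to 47.0% for *SMC1A*, and *MAU2* had 57.2%. *SMC1A* lay far under the median of its own bin, which was -0.02, and its control replicate 3 lay 0.59 above the mean of the other controls. In the lowest bin (-0.28), *STAG2* was at -0.28 and *ESCO1* at -0.34, with *SMC3* and *PDS5B* further under the median. In the next bin (-0.21), *NIPBL* was at -0.31, *STAG1* at -0.16 and *RAD21* at -0.12. *PDS5A* was at -0.15 in a bin with a median of -0.145, and *MAU2* was under the 0.17 of its bin. All 10 transcripts were longer than the median of 3281 bases. Without control replicate 2, *NIPBL*, *RAD21*, *PDS5A* and *ESCO1* were called lower (8.21% of genes tested), the median log2 fold change of the 10 genes was -0.19, and that of all genes tested was -0.00038. With GC content and length corrected in every library, *RAD21*, *PDS5A* and *ESCO1* were called lower (10.5% of genes tested), but only 5 of the 10 log2 fold changes were negative. How far GC content accounts for the values of these genes was not tested beyond this correction.

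**Figure D3:**
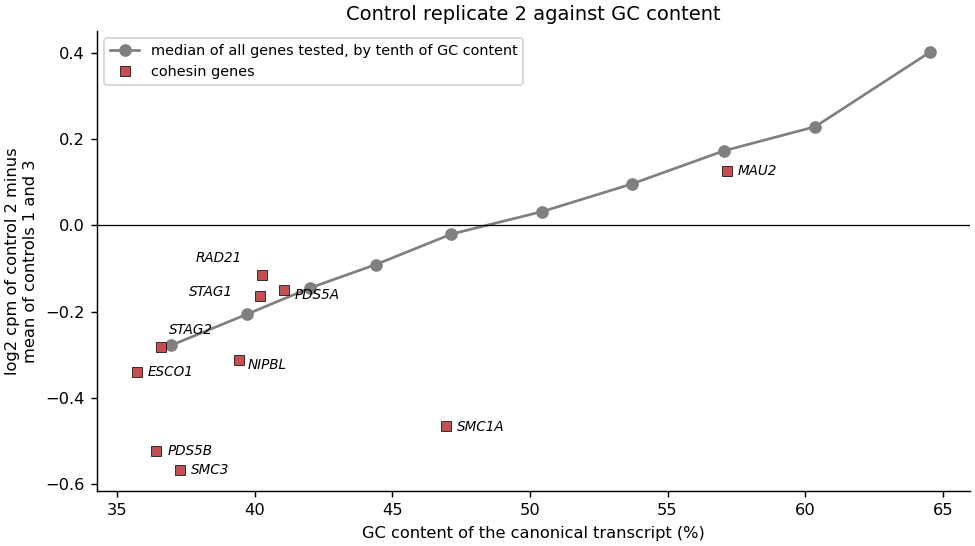
The log2 cpm of control replicate 2 minus the mean of control replicates 1 and 3, against the GC content of the canonical transcript in percent, for the 10 cohesin genes (squares) and as the median of each of 10 bins of all genes tested (circles). The medians run from -0.28 to 0.40, and *MAU2*, with the highest GC content of the cohesin genes, is the only square above 0.

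Per kilobase of canonical transcript, the control levels of the ring genes were the highest. *SMC1A* had 1754 ± 448 normalized counts per kb in the control and 2336 ± 19.5 in the knockdown group (SD, n = 3 cultures). *RAD21* (1129 ± 52.2), *SMC3* (1065 ± 225) and *STAG2* (1060 ± 117) followed in the control group, with ranges that overlapped each other but not that of *SMC1A*. *PDS5A* (583 ± 46.7) lay above *MAU2* (504 ± 27.0) without overlap, and the ranges of *MAU2* and *NIPBL* (439 ± 57.6) overlapped. *ESCO1* (202 ± 27.2), *STAG1* (190 ± 13.6) and *PDS5B* (157 ± 30.9) were the lowest, also with overlapping ranges. In the knockdown group *RAD21* was at 950 ± 49.5 per kb, after *SMC3* (1035 ± 65.6) and *STAG2* (1018 ± 34.7), and the range of *RAD21* overlapped theirs. *ESCO1* was at 156 ± 25.3 per kb in the knockdown group, and its range overlapped that of *PDS5B* (155 ± 9.59) and lay just under that of *STAG1* (185 ± 7.51).

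Ratios of counts within a culture need no scaling between libraries, but they were not corrected for the trend with GC content. *NIPBL* (39.4%) and *MAU2* (57.2%) differ in GC content, as do *SMC1A* (47.0%) and *SMC3* (37.3%). The 5 ratios were compared with exact two-sided permutation tests, for which 3 cultures against 3 cannot give a p under 0.10. The ratio of *SMC1A* to *SMC3*, the paired arms, was 4.32, 3.82 and 3.81 in the knockdown and 2.36, 3.02 and 3.37 in the control cultures. The groups did not overlap, and the difference of the mean log2 ratio was 0.46 (exact permutation p = 0.10, 0.25 adjusted over the 5 ratios). The ratio of *RAD21* to *SMC3* was 0.620, 0.617 and 0.590 in the knockdown and 0.630, 0.880 and 0.657 in the control cultures. Again the groups did not overlap, with a difference of -0.23 on the log2 scale (exact permutation p = 0.10, 0.25 adjusted), and without control replicate 2 the difference was -0.08. The ratio of *PDS5B* to *PDS5A* was 0.315, 0.338 and 0.339 in the knockdown and 0.285, 0.235 and 0.325 in the control cultures, which overlapped (difference 0.24, exact permutation p = 0.20, 0.333 adjusted). That difference was 0.12 without control replicate 2. *STAG2* had 5.21 to 6.02 times the counts of *STAG1* in the knockdown and 5.37 to 6.10 times in the control cultures, a log2 difference of -0.01 with overlapping groups (exact permutation p = 0.90). The ratio of *NIPBL* to *MAU2* was 1.65 to 1.88 in the knockdown and 1.52 to 2.20 in the control cultures, a log2 difference of -0.06 with overlapping groups (exact permutation p = 0.80). This difference was -0.20 without control replicate 2 and 0.06 without control replicate 1.

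The 7 lists of genes around cohesin held 65 genes, of which 63 were tested, 7 were called lower and 2 higher, where 4.64% of all genes tested were called lower and 5.40% higher. Among the regulators of cohesin acetylation and release, 1 of 5 was called lower (4.64% of all genes) and none higher (5.40%), and the median log2 fold change was 0.01, against -0.02 over all genes tested. *ESCO2*, which acetylates *SMC3* protein in S phase, fell from 614, 582 and 582 normalized counts in the control to 442, 469 and 451 in the knockdown cultures, with no overlap (log2 fold change -0.39, standard error 0.104, edgeR adjusted p = 0.0388). *ESCO2* was called in 9 of 14 alternative settings, and 4 of the 5 without a call left out 1 of the 3 knockdown cultures or control replicate 1, with adjusted p up to 0.165. *HDAC8*, the deacetylase of *SMC3* protein, had the highest log2 fold change of the list (0.21, adjusted p of 0.262), and *WAPL*, the release factor, had -0.02.

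Of the 10 genes that protect cohesin or lead to its cleavage at anaphase, 1 was called lower (4.64% of all genes) and 1 higher (5.40%), and 9 had a negative log2 fold change (52.7% of all genes), with a median of -0.13. *PTTG1* encodes securin, the inhibitor of separase, and fell from 1354, 1926 and 1547 to 1227, 1153 and 1097 normalized counts (log2 fold change -0.47, edgeR adjusted p = 0.0339). *PPP2R5D* encodes a B56 subunit of protein phosphatase PP2A and rose from 1747, 1980 and 2141 to 2679, 2569 and 2495 normalized counts (log2 fold change 0.40, edgeR adjusted p = 0.0227). Knockdown and control cultures did not overlap for these genes. Without 1 of the knockdown cultures the adjusted p reached 0.148 for *PTTG1* and 0.101 for *PPP2R5D*, and it was 0.0792 for *PPP2R5D* without control replicate 1.

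No gene of the other SMC complexes was called in the main edgeR fit of all 6 cultures. Of the 8 condensin genes, whose products compact mitotic chromosomes, 5 had a positive and 3 a negative log2 fold change, from -0.12 for *SMC4* to 0.25 for *NCAPG2* (edgeR adjusted p = 0.113), with a median of 0.02. *NCAPD2*, with 6540, 6224 and 6314 normalized counts in the knockdown and 5359, 5435 and 5479 in the control cultures, had the smallest p of this list (log2 fold change 0.23, edgeR adjusted p = 0.0952, and 0.0418 without control replicate 2). *NCAPG2* was called after the correction for GC content and length (adjusted p = 0.0241 by edgeR). Of the 8 tested genes of the SMC5/6 complex, which acts in DNA repair, 4 were positive and 4 negative, from -0.17 for *SLF2* to 0.35 for *NSMCE4A* (edgeR adjusted p = 0.0755), with a median of 0.07. *NSMCE4A* was called higher without control replicate 2 (adjusted p = 0.0258 by edgeR), without control replicate 3 (0.0474) and after the correction for GC content and length (0.0148), and *SLF2* was at -0.06 without control replicate 1. *SMC2*, *SMC5* and *SMC6*, named after their values were seen, were each called in 1 of 14 alternative settings. On all 6 cultures their log2 fold changes were -0.09, 0.18 and 0.27. The list of meiotic paralogs of cohesin subunits held 7 tested genes, including *STAG3L1* to *STAG3L4*, which are partial copies of *STAG3*. All 7 had positive log2 fold changes, where 52.7% of all genes tested had negative ones. They ran from 0.04 for *STAG3* to 0.47 for *STAG3L1* with a median of 0.25. None was called, and *STAG3* was negative in 4 of 14 alternative settings. The smallest p of this list was that of *STAG3L4* (log2 fold change 0.26, edgeR adjusted p = 0.185). *SMC1B*, the meiotic counterpart of *SMC1A*, had 3.06 to 14.4 normalized counts per culture, and *RAD21L1*, the counterpart of *RAD21*, had 3 to 7 counts and was not tested. Reads of *STAG3* and its partial copies *STAG3L1* to *STAG3L4* may have been divided between them, so their values are uncertain.

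Of the 10 genes for loop anchors and for partners in transcription or Cornelia de Lange syndrome, 1 was called higher (5.40% of all genes) and 1 lower (4.64%), with a median log2 fold change of 0.05. *ANKRD11*, a chromatin regulator that is mutated in KBG syndrome, rose from 3662, 2985 and 4038 to 5484, 5694 and 5558 normalized counts (log2 fold change 0.65, standard error 0.109, edgeR adjusted p = 0.00431), and was called in all 14 alternative settings. *MED1*, a Mediator subunit, fell from 4182, 3362 and 4015 to 2597, 3102 and 2940 (log2 fold change -0.42, edgeR adjusted p = 0.0297). *MED1* was called in 9 of 14 settings, with adjusted p up to 0.138, and was not called without any 1 of the 3 knockdown cultures or without control replicates 1 or 3. *CTCF*, the DNA-binding factor at which cohesin loops are anchored, had 2072, 2131 and 2223 normalized counts in the knockdown and 1988, 1921 and 2069 in the control cultures (log2 fold change 0.11, edgeR adjusted p = 0.453).

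Cohesin is loaded and acetylated in step with the cell cycle, and 4 of 15 markers of cycling cells were called lower (4.64% of all genes) and none higher (5.40%), with a median log2 fold change of -0.14. *CCNE2*, a cyclin of the G1/S transition, fell from 670, 645 and 636 to 371, 411 and 439 normalized counts (log2 fold change -0.68, edgeR adjusted p = 0.00346). *CDK1*, the mitotic kinase, showed a log2 fold change of -0.47 (adjusted p = 0.00710 by edgeR), *PCNA*, the replication clamp, of -0.35 (0.0269) and *RRM2*, a subunit of ribonucleotide reductase, of -0.32 (0.0303). *CCNE2* was called in all 14 alternative settings, *CDK1* in 13, and *PCNA* and *RRM2* in 9 each, where 4 of the 5 settings without a call left out 1 culture. Without knockdown replicate 3 the adjusted p was 0.0565 for *CDK1*, 0.165 for *PCNA* and 0.152 for *RRM2*. *PCNA* was also not called without knockdown replicates 1 (0.0548) or 2 (0.150) or control replicate 1 (0.0566), nor was *RRM2* (0.101, 0.173 and 0.0822). The highest value of this list was that of *CENPF* (0.26, adjusted p of 0.378), which was 0.05 without control replicate 2 and 0.44 without control replicate 3. Whether the proportion of cells in each phase had a part in the values of the cohesin genes was not tested.

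**Figure D4:**
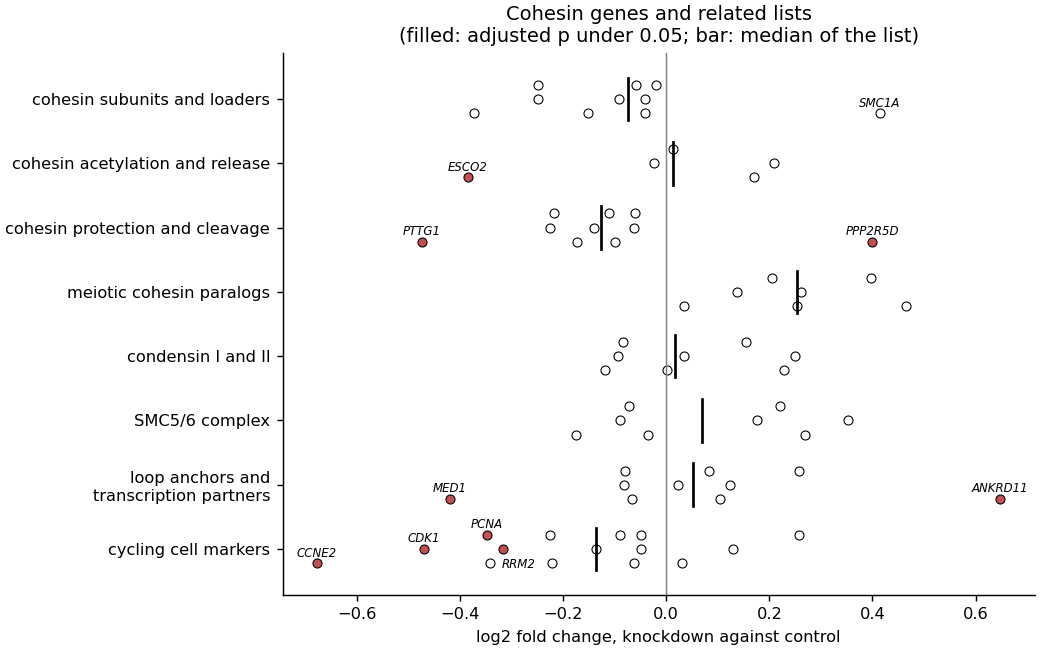
Log2 fold changes of the 10 cohesin genes and of the tested genes of 7 related lists, with 1 circle for each gene, filled where the adjusted p was under 0.05, and a bar at the median of each list. No circle of the cohesin genes, the list of meiotic paralogs, condensin or the SMC5/6 complex is filled, and 4 of the 15 cycling cell markers are filled, all left of 0.

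Among themselves, the cohesin genes differed in their profile over the 6 cultures. The mean profile of the 10 genes, centred on the log2 scale, was lowest in control replicate 2 (-0.15) and knockdown replicate 1 (-0.10) and highest in control replicates 3 (0.14) and 1 (0.13). *STAG2* was nearest to it, with a root mean square difference of 0.0172, and *SMC1A* was farthest, at 0.302, followed by *ESCO1* (0.188) and *MAU2* (0.143). The nearest genes outside all lists were *DDX3X* (0.0149), *SEC23IP* (0.0176), *XPOT* (0.0207), *NOC3L* (0.0248) and *THOC1* (0.0249), none of them called. For *RAD21*, the cohesin gene with the smallest p, *MBD2* (0.0155) and *FBXO5* (0.0174) were the nearest, with log2 fold changes of -0.26 and -0.25, and neither was called. Knockdown replicates 2 and 3 were the most alike over the 10 genes (0.0690), and knockdown replicate 1 and control replicate 1 the least (0.401). Control replicate 3 was nearer to knockdown replicates 2 (0.176) and 3 (0.177) over these genes than to control replicate 2 (0.371), and about as near to control replicate 1 (0.169). The same order held over all genes tested, where knockdown replicates 2 and 3 were also the most alike (0.271). There, control replicate 3 was at 0.397 and 0.413 from knockdown replicates 2 and 3, 0.486 from control replicate 2 and 0.369 from control replicate 1. The coefficient of variation was larger in the control than in the knockdown group for 8 of the 10 genes, against 73.2% of all genes tested.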

How the data were processed

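RNA was sequenced from 3 *HSALNG0134318* knockdown and 3 control cultures of HEK293. The authors deposited raw, whole-number counts of reads for each gene, not normalized. Per the labels' processing notes, FastQC 0.11.9, Trim Galore 0.6.6, STAR 2.7.9a and featureCounts 2.0.1 were used with hg38, and the study's methods add removal of ribosomal RNA and give other versions of STAR and featureCounts. The annotation, the strand setting and the handling of multi-mapping reads are not given in the sources used here.

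After filterByExpr and TMM normalization, all 6 cultures were fitted in edgeR 4.0.16 (R 4.3.3) with robust quasi-likelihood F tests and no block. Benjamini-Hochberg adjustment ran over the 14877 genes tested. Standard errors were the log2 fold change divided by the root of F, and 95% intervals used the degrees of freedom of the fit. The biological coefficient of variation was 12.4%, and totals of 13900965 to 16869948 counts limit the precision. For normalized counts, each count was scaled to the mean effective library size of the cultures. Positions, canonical transcripts and exon overlaps came from GENCODE v44 (GRCh38), with 23161 names matched by symbol and 1327 by a RefSeq synonym, and 97.2% of the genes tested had a GC content and a length. The edgeR fit, the replicate block, DESeq2 size factors, the GC and length correction, limma-voom and the Wald test were run on simulated counts. Those counts held no trend with GC content or length between libraries, so they could not test whether the correction removes one. Alternatives were DESeq2 size factors, library sizes alone, no filter, a minimum of 10 counts per culture, the replicate block, the DESeq2 1.42.0 Wald test, limma-voom (limma 3.58.1), each culture left out, and a loess correction for GC content and length (span 0.3).

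The cohesin genes, the 7 lists and the alternatives were chosen with earlier results of these data known. Named in the text were all cohesin genes, in each list the called genes (at most 4) or else the gene with the smallest p, and the lowest and highest log2 fold change, the 5 genes nearest to the mean cohesin profile and the 3 nearest to the cohesin gene with the smallest p. *RIBC1*, *UTP23*, *PCCB*, *WAPL*, *CTCF*, *SMC1B*, *RAD21L1*, *SMC2*, *SMC5* and *SMC6* were named outside this rule, after their values were seen. *RAD21-AS1*, *MIR3610*, *TENM1* and *STAG2-AS1* were named only for their shared exon bases. A single result that the rule names is not reported here.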

Additional observations from a re-analysis of the deposited data

How the results depend on the processing

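Over 14 alternatives for each of 30 named genes, 354 values kept their direction and their side of the threshold, 28 lost a call, 19 gained one and 19 changed sign. When each culture was left out in turn, 233 to 1238 genes were called lower and 289 to 1274 higher, 0 to 4 cohesin genes lower and 0 to 1 higher, and 1 to 11 genes of the lists lower and 1 to 4 higher, with the highest counts called lower without control replicate 2. The GC and length correction called 1519 genes lower and 1331 higher, with 3 cohesin genes lower, and 10 genes of the lists lower and 6 higher. The replicate block called 619 genes lower and 714 higher. Among them were 1 cohesin gene called higher, *SMC1A* (adjusted p of 0.0460 from edgeR), and 4 genes of the lists called lower. *ESCO2* (0.115), *PCNA* (0.0771) and *RRM2* (0.115) lost their call. DESeq2's Wald test called 1 cohesin gene higher. The replicate numbers did not pair the cultures, with correlations of the deviations of -0.20, -0.11 and -0.04 for numbers 1, 2 and 3, and no culture correlated best with its own number. Signs changed for *SMC3* (-0.207 to 0.062 over the cultures left out, 0.077 after the GC and length correction), *STAG1* (-0.094 to 0.009, 0.008), *STAG2* (-0.15 to 0.006, 0.065), *PDS5B* (-0.175 to 0.083, 0.114, and 0.003 in limma-voom), *STAG3* (-0.15 to 0.32, -0.009) and *SMC4* (-0.29 to 0.003, 0.001). The log2 ratios of *STAG2* to *STAG1* (-0.064 to 0.041) and of *NIPBL* to *MAU2* (-0.202 to 0.064) also changed sign over the cultures left out. The cause was not tested. With 3 cultures a group, the 95% intervals of the uncalled cohesin genes still allow log2 differences of up to 0.74 for *SMC1A* and down to -0.68 for *ESCO1*.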
